A study of Mus musculus with 12 samples.

Results

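The antiapoptotic members of the BCL2 family keep cells alive by holding the effectors BAX and BAK and the BH3-only sensors of stress at the mitochondrial membrane. Immune cells divide this work. Resting lymphocytes are known for BCL2, short-lived neutrophils for MCL1, and activated or inflammatory leukocytes for A1, which in mice is encoded by several near-identical Bcl2a1 copies under NF-kB control. The 7 genes described here, of 31053 in the deposited matrix, were chosen by name: Bcl2, Bcl2l1 (BCL-XL), Bcl2l2 (BCL-W), Mcl1, Bcl2a1a, Bcl2a1b and Bcl2a1d. All 7 were found, and their levels are given across 8 classes of CD45+ cells from MC38 tumors and across 12 libraries.

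MC38, a mouse colon adenocarcinoma line, was implanted under the skin of C57BL/6 mice, and PF-06821497 (EZH2i, an inhibitor of the histone methyltransferase EZH2, 100 mg/kg) or vehicle was injected subcutaneously every day. There were 4 groups of 3 mice: EZH2i or vehicle for 7 days, with dosing from day 10, and EZH2i or vehicle for 16 days, with dosing from day 1. All tumors were taken on day 17, and CD45+ cells bound to microbeads were run on the 10x Genomics 3' v3 platform. The study's methods describe female mice; their age was not found in the labels or methods. All libraries were deposited in 1 matrix whose barcodes are numbered by library, 1 to 12. No label links a numbered library to a mouse or a group, and groups were not assigned from the number of cells or the order of the libraries, so EZH2i was not compared with vehicle here and no p-value is given. Classes of cells were compared within each library instead, and a member was called when its level lay on the same side in every library.

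The 3 Bcl2a1 copies lie together on chromosome 9 (GRCm38): Bcl2a1d at chr9:88723285-88731914 on the minus strand, Bcl2a1a at chr9:88956900-88962419 and Bcl2a1b at chr9:89199209-89207827 on the plus strand. Their annotated transcripts (GENCODE M21) were 98.2 to 99.1% identical in pairs, and 99.3% of the 300 bases at the 3′ end, where this kit reads, were the same in Bcl2a1d and in either other copy. Windows of 90 bases found exactly in another copy made up 39.8% of the windows in the last 300 bases of Bcl2a1a, 50.2% of Bcl2a1b and 89.6% of Bcl2a1d, so the split of reads among the copies is uncertain and Bcl2a1d could lose the most. Counts of members called below take the copies as separate genes, although they are not independent. The sequence upstream of the genes is alike as well. The stretch below, read from RefSeq promoters (GRCm38.p6) and lying upstream of each gene, has capitals where the 3 copies are not the same. It is shown because mature dendritic cells had more of every copy, and whether it bears on that level was not tested. A run of 6 bases absent from Bcl2a1d lies in a repeat, so its exact place is arbitrary. The stretches lie at chr9:88956714-88956855 (plus strand), chr9:89199023-89199164 (plus strand) and chr9:88731915-88732050 (minus strand).
Bcl2a1a: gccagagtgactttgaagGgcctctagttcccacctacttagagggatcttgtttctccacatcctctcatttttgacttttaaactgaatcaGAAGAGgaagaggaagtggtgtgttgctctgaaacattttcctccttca
Bcl2a1b: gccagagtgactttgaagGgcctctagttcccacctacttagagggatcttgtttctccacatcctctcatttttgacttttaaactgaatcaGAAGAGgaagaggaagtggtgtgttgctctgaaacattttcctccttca
Bcl2a1d: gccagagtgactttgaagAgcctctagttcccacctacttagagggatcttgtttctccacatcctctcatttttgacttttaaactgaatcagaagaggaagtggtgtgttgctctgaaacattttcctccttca
Of 136 aligned bases, 135 were the same in all 3 copies. The NF-kB consensus was searched on both strands of the 250 bases before each RefSeq start, which can lie some bases from the GENCODE start given here, and no copy held a match in this window; 7.25% of 32841 promoters did. Among the other members, 1 of the 3 Bcl2l1 promoters held a match.

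The other members are single genes: Bcl2 at chr1:106538178-106714274 and Bcl2l1 at chr2:152780668-152831728, both on the minus strand, and Mcl1 at chr3:95658788-95663176 and Bcl2l2 at chr14:54883377-54888234 on the plus strand. Bcl2l2 overlaps on its own strand with the gene model Gm20521 (1 UMI in all barcodes), and Bcl2a1b with Gm29094 (119 UMIs). A further copy, Bcl2a1c, had 242 UMIs in all and was not a member.

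The libraries held 4256 to 38110 barcodes each, and 128912 cells were kept. A kept cell had over 200 but under 5000 genes, with no more than 10% of its UMIs (unique molecular identifiers, 1 per captured RNA molecule) from mitochondrial genes. The median cell had 2291 to 15081 UMIs, depending on the library. Between 2.69 and 3.8% of a library's barcodes had a sequence that another library also used. Library 4 held 9 CD8 T cells and 622 of all 1604 neutrophils. Y-linked UMIs were present in libraries 1 to 6 (128 to 209 CPM, that is, UMIs in each 1000000) and absent from libraries 7 to 12, although the methods describe female mice. Levels are in CPM, the UMIs of a gene over all UMIs of a class in a library, scaled to 1000000, for classes with at least 20 cells there. Since 1 UMI stands for 1 molecule regardless of transcript length but capture differs between genes, each gene, share of the family or ratio of copies was compared between classes, and no order among genes is read within a class.

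Cells were placed in a class by UMIs of lineage genes, with 0 UMIs of a fixed set of genes of other lineages. C1q genes of macrophages were limited to 2 UMIs in the dendritic, monocyte and neutrophil gates and were not used in the lymphoid gates. The gates held 3747 CD8 T cells (11 libraries with at least 20), 763 CD4 T cells (8 libraries), 415 NK cells (6), 382 B cells (5), 738 dendritic cells (12), 67106 macrophages (12), 2259 monocytes (12) and 1604 neutrophils (10); 51894 of the cells kept were in no gate. The classes were checked with genes that their gates did not use, and not every such gene set its class apart. The median over libraries of the T cell receptor gene Trac was 517 CPM in CD8 T cells, 560 CPM in CD4 T cells and 24 CPM in NK cells, and it was at most 2.90 CPM in every other class. G0s2, a neutrophil gene, was at 4725 CPM in neutrophils and Apoe, abundant in tumor macrophages, at 17438 CPM in macrophages. Klrd1, an NK cell receptor gene, was at 966 CPM in NK cells and 512 CPM in CD8 T cells, and Plac8 at 4387 CPM in monocytes. The B cell gate varied most, with Ighm from 894 CPM to 23081 CPM between libraries. Ccl5, listed for CD8 T cells, was at 3673 CPM there but also at 3012 CPM in dendritic cells. H2-Aa, listed for dendritic cells, was at 5252 CPM there but also at 4265 CPM in B cells. Macrophage RNA reached the other gates: Apoe in CD8 T cells stood at 1.60 to 18.8% of its macrophage level in the same library, with the highest value in library 6, and 82.6% of CD8 T cells and 82.8% of CD4 T cells had an Apoe UMI. In B cells the share was 6.98 to 59.1% (median 12.6%), and at that ratio macrophage RNA would carry a median of 44.96% of their Bcl2a1b, 41.6% of Bcl2a1a, 34.5% of Bcl2a1d, 41.6% of Bcl2l1 and 20.3% of Mcl1. Whether this came from free RNA or from attached or engulfed cells was not tested.

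**Figure D1:**
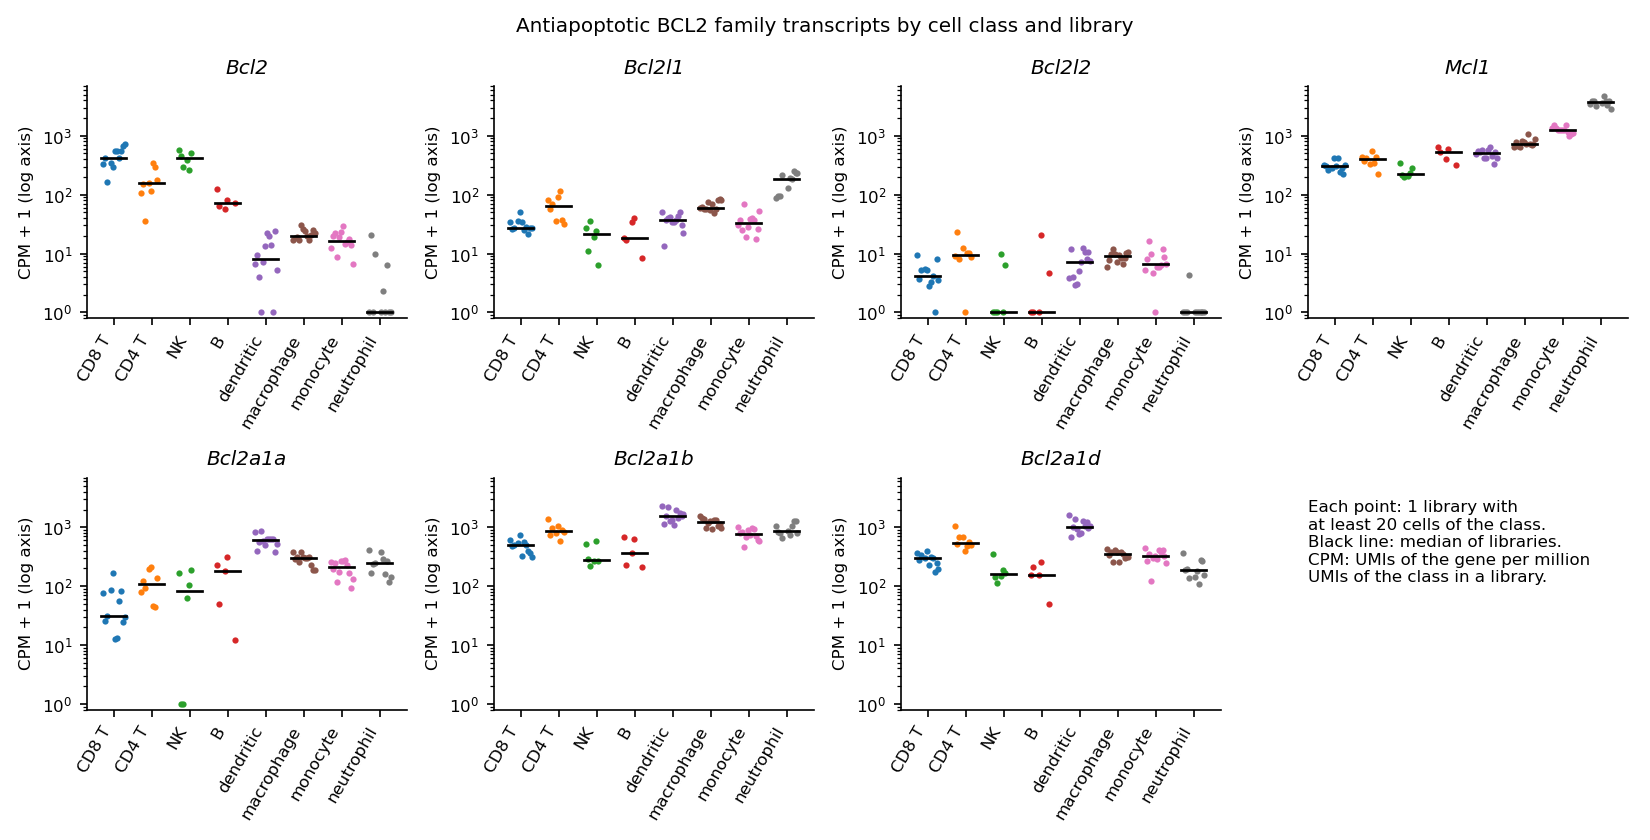
Level of each member (CPM + 1, log axis) in 8 cell classes. Each point is 1 library with at least 20 cells of the class and each black line the median of libraries. Bcl2 is highest in CD8 T and NK cells, Bcl2l1 and Mcl1 in neutrophils, and the 3 Bcl2a1 copies in dendritic cells taken whole.

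Bcl2, the lymphocyte survival factor downstream of IL-7 and IL-15, separated lymphoid from myeloid cells. In CD8 T cells it ranged from 163 to 715 CPM over 11 libraries (median 424 CPM), and in NK cells from 264 to 576 CPM over 6 libraries (median 423 CPM). These classes could not be ordered, since CD8 T cells were higher in 2 of the 6 libraries with both; with cells thinned to 1000 UMIs, NK cells were higher in 6 of 6. CD4 T cells came next, at 34.8 to 346 CPM (median 156 CPM, 8 libraries), and were below NK cells in 6 of 6 libraries. B cells had 122, 63.9, 55.9, 79.3 and 71.5 CPM in libraries 1, 2, 5, 6 and 10, the 5 with enough cells. They were below CD8 T cells in all 5 but below CD4 T cells in 3 of 4 only.

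Myeloid cells had little Bcl2. Macrophages held 15.9 to 29.3 CPM (median 19.0 CPM, 12 libraries), and CD8 T cells exceeded them in 11 of 11 libraries, with a median 22.0 times as high. T cell RNA at the ratio of Trac would carry 0.258 to 5.08 CPM of Bcl2 into macrophages, and its part in the measured level was not tested. Monocytes had 5.7 to 27.9 CPM, in an order with macrophages that held in 9 of 12 libraries, and dendritic cells 0 to 22.7 CPM. In neutrophils 6 of 10 libraries were at 0 and the highest was at 20.01 CPM. There 3 UMIs, the limit that a count of 0 allows, correspond to 3.26 to 47.8 CPM, a range that takes in the macrophage level, so a 0 is not read as a difference there. Pooled over libraries, neutrophils had 5.0 CPM (95% exact Poisson interval 2.8 to 8.2 CPM, counting error only). Shares of cells were compared after thinning to 1000 UMIs, which left out shallower cells and kept 3432 of 3747 CD8 T cells, 66713 of 67106 macrophages and 2163 of 2259 monocytes, while 39.2% of the 1604 neutrophils were left out. Among the cells kept, 34.1% of CD8 T cells had a Bcl2 UMI, against 2.2% of macrophages and 0.2% of neutrophils; unthinned, these shares were 60.7, 11.99 and 0.873%, at median depths of 2906, 5192 and 1196.5 UMIs.

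Within the monocyte gate, the 81 cells with Ace or Treml4 UMIs and no Ly6c2, markers of patrolling monocytes, had 23 Bcl2 UMIs, or 69.4 CPM pooled (interval 44.0 to 104 CPM). The 1970 Ly6c2-positive monocytes had 14.2 CPM pooled (interval 11.9 to 16.8 CPM). No library had 20 patrolling cells, so this was not compared within libraries. In the same way the 16 Foxp3-positive CD4 T cells, regulatory T cells by that marker, had 60.1 CPM of Bcl2 from 7 UMIs (interval 24.1 to 124 CPM), against 245 CPM in the Foxp3-negative ones.

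Bcl2 also varied within CD8 T cells. Cells with at least 2 UMIs of Mki67 or Top2a, called cycling here, had a median of 228 CPM, and cells with none had 501 CPM in the same 9 libraries. Cycling cells were lower in 9 of 9 libraries, with a median log2 ratio of -1.05 (range -2.07 to -0.52). Mcl1, whose product is short-lived, was lower as well, at 222 against 341 CPM (log2 ratio -0.56, 9 of 9). CPM is a share of UMIs, and cycling cells were deeper (median 5096.5 against 2395.5 UMIs). Unthinned, 62.8 against 60.5% of cells had a Bcl2 UMI and 67.4 against 55.8% an Mcl1 UMI. Thinned to 1000 UMIs, these were 25.4 against 37.7% and 21.8 against 30.5%. The order is thus in shares of UMIs, not in molecules per cell. The other 5 members were in no common order; Bcl2a1b, for one, was at 482 against 516 CPM. Of all genes tested 13.5% were in 1 order in every library, and 2 of 7 members were. Of 36 partners tested 4 were higher and 4 lower. Il7r, the IL-7 receptor chain (144 against 303 CPM), Tnfaip3 (355 against 472 CPM) and Bcl2l11 (BIM, 119 against 169.7 CPM) were lower, and Birc5 was higher (363 against 14.0 CPM).

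Tcf7 marks stem-like T cells and Havcr2 (TIM-3) exhausted ones. At least 20 cells of both were present in 4 libraries only, and the comparison was made with 10 cells, a limit set after the cell numbers had been seen. In 7 of 7 libraries Bcl2 was higher in the Tcf7-positive cells, at 651 against 303 CPM (log2 ratio 1.12, range 0.35 to 2.31). It was the 1 member called of 6 with enough UMIs, where 5.49% of all genes were called. Mcl1 was at 368 against 372 CPM and higher in 3 of 7 libraries. Bcl2a1b was at 532 against 689 CPM and higher in 1 of 7. Of 32 partners tested 1 was higher, Birc3 (71.5 against 29.6 CPM), and 4 were lower, Tnfrsf9 (4-1BB, 147 against 365 CPM), Csf2rb (26.5 against 84.0 CPM) and Bax (104 against 190.5 CPM) among them.

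**Figure D2:**
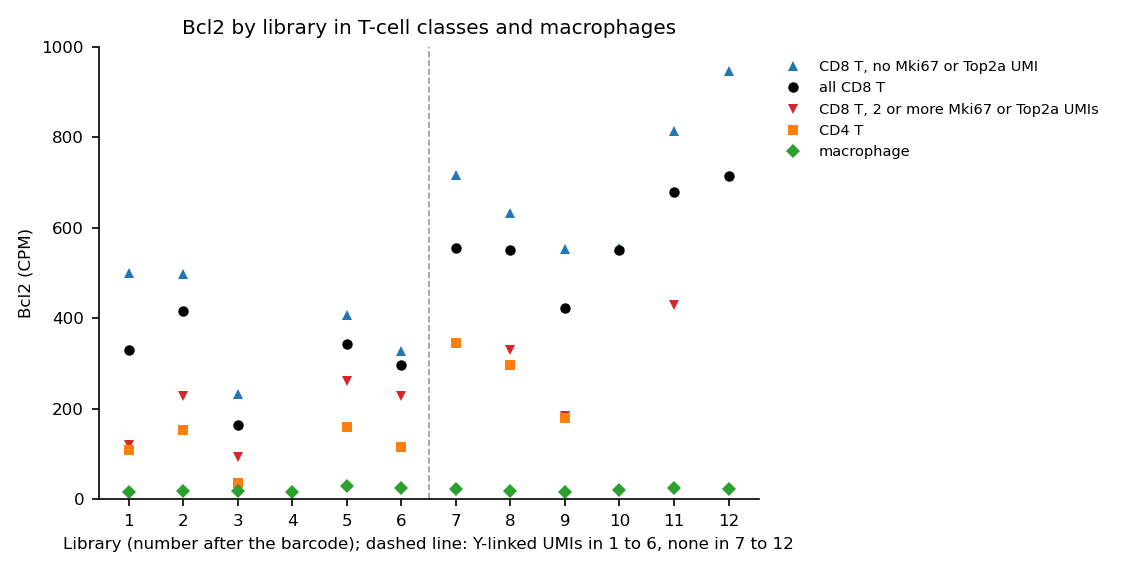
Bcl2 (CPM) in each library for all CD8 T cells, cycling and non-cycling CD8 T cells, CD4 T cells and macrophages, where the class had at least 20 cells. Cycling cells lie below non-cycling ones in each library with both, and CD8 T and CD4 T values of libraries 1 to 6 lie below those of libraries 7 to 12, while macrophages stay at 15.9 to 29.3 CPM throughout.

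The libraries fell into separate ranges for Bcl2 in CD8 T and CD4 T cells taken whole. In CD8 T cells libraries 1, 2, 3, 5 and 6 had 330, 416, 163, 343 and 296 CPM, and libraries 7 to 12 had 555, 551, 424, 552, 679.8 and 715 CPM. The first set, which carries the Y-linked UMIs, lay below the second without overlap, as it did in CD4 T cells (34.8 to 160 CPM in 5 libraries against 179.8 to 346 CPM in 3). Bcl2 was the only one of the 7 members to do so in either class, where 1.6% (CD8 T) and 4.02% (CD4 T) of all genes did. No member was apart in dendritic cells (0.547% of genes), macrophages (0.452%), monocytes (0.396%) or neutrophils (1.81%). Non-cycling CD8 T cells were also apart (232 to 501 against 554 to 946 CPM), while cycling ones (94.2 to 261 against 183 to 429 CPM), Havcr2-positive ones (148 to 395 against 303 to 510.3 CPM) and NK cells (264 to 576 CPM in 5 libraries, 509 CPM in 1) overlapped. Apoe in CD8 T cells was 466 to 3722 CPM in the first set and 296 to 666 CPM in the second, and the mean CD8 T cell held 2172 to 6089 and 2771 to 8579 UMIs. Bcl2 stayed apart in CD8 T cells thinned to 1000 UMIs (250 to 577 against 626 to 939 CPM). It also did in those with no Apoe UMI (332 to 543 CPM in 5 libraries against 566 to 851 CPM in 4). In non-cycling CD8 T cells with no Apoe UMI the sets nearly touched (380 to 575.6 against 575.8 to 932 CPM). The sets were formed after the values had been seen, and no label gives the treatment or length of treatment of either set. The part of these, of the animals and of the preparation was not tested.

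Bcl2l1, whose product BCL-XL protects many cell types, was highest in neutrophils, at 85.1 to 256 CPM (median 186 CPM, 10 libraries). Neutrophils exceeded macrophages, at 47.4 to 82.0 CPM (median 58.7 CPM), in 10 of 10 libraries. They also exceeded CD4 T cells, the next class by median (62.4 CPM, range 30.4 to 114 CPM), in 6 of 6. These are shares of UMIs, and neutrophils were shallower (median 1196.5 against 5192 UMIs in macrophages). Thinned to 1000 UMIs, 15.9% of neutrophils and 6.1% of macrophages had a Bcl2l1 UMI, but 24.3 and 29.5% did unthinned. CD4 T cells and macrophages could not be ordered (4 of 8 libraries). Macrophages were above dendritic cells (median 35.9 CPM) in 12 of 12 libraries and above CD8 T cells (median 26.0 CPM, range 20.6 to 50.3 CPM) in 11 of 11. Below macrophages came dendritic cells, monocytes (median 32.5 CPM), CD8 T cells, NK cells (20.3 CPM) and B cells (17.4 CPM), and no neighbours among these kept 1 order in every library. The order against macrophages was not in every library when cells were thinned to 1000 UMIs, when the highest 10% of UMIs were left out, or with at least 10 cells in 12 libraries. The median in neutrophils was 183 CPM without library 4.

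Bcl2l2 was low in every class, and its counts were few outside macrophages, which held 3477 of its UMIs. Its median was 8.5 CPM in CD4 T cells, 8.0 CPM in macrophages (range 5.0 to 11 CPM) and 3.2 CPM in CD8 T cells, and 9 of 10 neutrophil libraries were at 0. Among cells thinned to 1000 UMIs, at least 1 UMI was seen in 0.702% of macrophages, 0.71% of CD4 T cells and 0.103% of neutrophils, against 4.89, 4.06 and 0.249% unthinned. In neutrophils the median limit that a count of 0 allows, 21.7 CPM, was above the macrophage level, so the order called for this member is not read as a difference. No neighbouring classes differed in every library with both.

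Mcl1, needed by neutrophils and many lymphocytes, gave the clearest gradient in CPM. The gradient is in shares of UMIs, and no order in molecules per cell is read from it. The median cell held 1196.5 UMIs in neutrophils, 4000 in monocytes and 5192 in macrophages. Neutrophils held 2822 to 4793 CPM (median 3735 CPM), monocytes 1003 to 1510.4 CPM (median 1254 CPM) and macrophages 641 to 1049.8 CPM (median 728 CPM). Neutrophils were above monocytes in 10 of 10 libraries and their ranges did not overlap, and monocytes were above macrophages in 12 of 12. Among cells thinned to 1000 UMIs, 91.5% of neutrophils, 70.1% of monocytes and 52.1% of macrophages had an Mcl1 UMI, against 94.6, 94.02 and 91.5% unthinned. Below them came B cells (median 527 CPM), dendritic cells (500.2 CPM, range 329 to 637 CPM), CD4 T cells (395 CPM), CD8 T cells (302 CPM, range 219.5 to 417 CPM) and NK cells (221 CPM). Macrophages exceeded B cells in 4 of 5 libraries and B cells exceeded dendritic cells in 2 of 5. Dendritic cells exceeded CD4 T cells in 7 of 8 libraries, CD4 T exceeded CD8 T cells in 7 of 8 and CD8 T exceeded NK cells in 5 of 6, so these neighbours were not in 1 order throughout.

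The Bcl2a1 copies were highest in dendritic cells taken whole. Bcl2a1a had 384 to 849.6 CPM there (median 607 CPM), above the 185 to 383 CPM of macrophages in 12 of 12 libraries and without overlap. Bcl2a1d had 693 to 1617 CPM in dendritic cells (median 1021 CPM) against 252 to 428 CPM in macrophages, again higher in 12 of 12. Bcl2a1b, at 1093 to 2260.2 CPM (median 1531 CPM) against 931 to 1555 CPM, was higher in 11 of 12 and was not called.

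Within this gate 447 of 738 cells were mature dendritic cells, those with at least 2 UMIs of Ccr7 or Fscn1, genes of migratory cells. The gate itself asked for at least 2 UMIs of Xcr1, Clec9a, Cd209a, Ccr7 and Fscn1 together, so the part of mature cells depends on the gate. At the limit of 10 cells set later, Bcl2a1b was 2308 against 689.6 CPM in the other dendritic cells, Bcl2a1d 1493 against 478 CPM and Bcl2a1a 846 against 319.9 CPM, each higher in 10 of 10 libraries. The median log2 ratios were 1.86, 1.70 and 1.37, and the lowest in any library was 0.66. The 3 copies were the members called, where 14.8% of all genes were, but as near-identical copies they are not 3 independent genes. Bcl2l1 was higher in 9 of 10 (45.2 against 18.2 CPM) and Mcl1 in 8 of 10 (560.5 against 449 CPM). Mature cells with at least 20 per library were above macrophages in 10 of 10 for each copy, by 1.87 times for Bcl2a1b, 2.72 times for Bcl2a1a and 4.16 times for Bcl2a1d. The other dendritic cells had at least 20 cells in 5 libraries. Their Bcl2a1b was 542 to 727 CPM, below the 931 to 1555 CPM of macrophages. Bcl2a1a was 141 to 410 CPM against 185 to 383 CPM, and Bcl2a1d 462 to 515 CPM against 252 to 428 CPM.

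Among lymphocytes, CD4 T cells were above CD8 T, NK and B cells for Bcl2a1b and for Bcl2a1d in every library with at least 20 cells of both. Against CD8 T cells neither copy was called with at least 10 cells, in 11 libraries. Bcl2a1b was 592 to 1365 CPM (median 853 CPM) in CD4 T and 316 to 724 CPM (median 498 CPM) in CD8 T cells, and Bcl2a1d 392 to 1061 CPM (median 542 CPM) and 170 to 389 CPM (median 304 CPM). Bcl2a1a was at 11.5 to 165 CPM in CD8 T cells, with the highest value in library 6, and at 11.3 to 317 CPM in B cells. At the ratio of Apoe, macrophage RNA would carry 3.63 to 59.8 CPM of Bcl2a1a into CD8 T cells, a median of 25.03% of its level there, but 8.92% of Bcl2a1b and 3.87% of Bcl2a1d. Into CD4 T cells macrophage RNA would carry 28.8 to 293 CPM of Bcl2a1b, a median of 7.08% of its level there, and 2.77% of Bcl2a1d. In the 652 CD8 T cells with no Apoe UMI, Bcl2a1a was 27.4 CPM pooled against 59.6 CPM in all CD8 T cells, and Bcl2a1b 461 against 529.6 CPM.

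**Figure D3:**
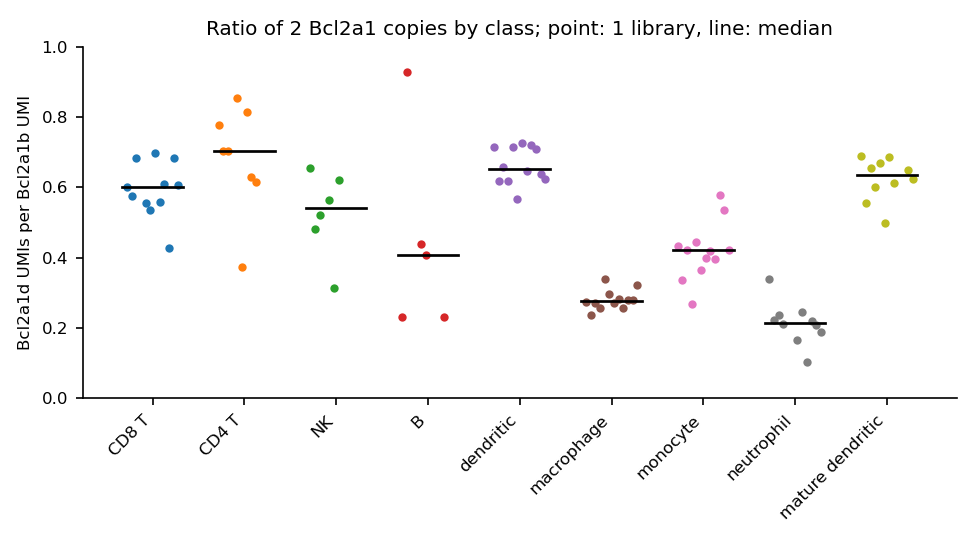
UMIs of Bcl2a1d per UMI of Bcl2a1b in each class. Each point is 1 library and each line the median. The ratio is 0.237 to 0.339 in macrophages and 0.566 to 0.728 in dendritic cells, with no overlap.

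The balance among the copies differed between classes. Bcl2a1d UMIs per Bcl2a1b UMI had a median of 0.277 in macrophages (range 0.237 to 0.339) and 0.215 in neutrophils (0.103 to 0.340), but 0.652 in dendritic cells (0.566 to 0.728), 0.601 in CD8 T cells (0.429 to 0.697) and 0.704 in CD4 T cells (0.374 to 0.856). The ratio was higher than in macrophages in 12 of 12 libraries for dendritic cells, 12 of 12 for monocytes (median 0.421), 11 of 11 for CD8 T cells, 8 of 8 for CD4 T cells and 6 of 6 for NK cells, and in 3 of 5 for B cells (median 0.406, range 0.231 to 0.929) and 1 of 10 for neutrophils. Whether transcript ends or read placement among the copies differed between classes was not tested.

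**Figure D4:**
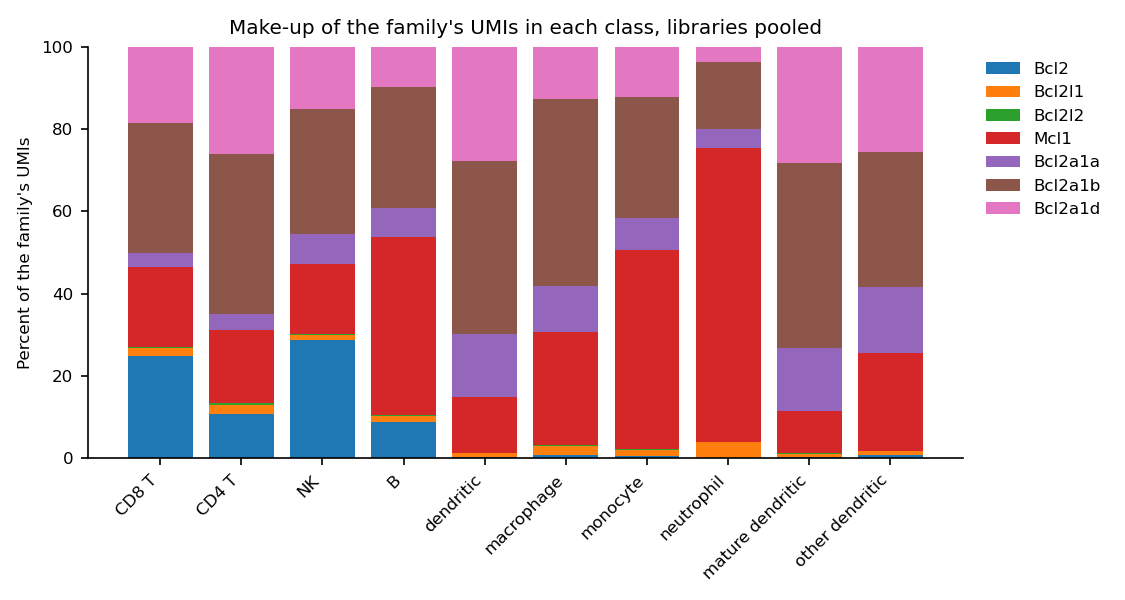
Share of each member in the UMIs of the family (percent), with the libraries pooled, in 8 classes and in mature and other dendritic cells. Bcl2 takes a visible share in lymphoid classes only, the share of Mcl1 is highest in neutrophils and that of the Bcl2a1 copies in mature dendritic cells.

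The make-up of the family differed between classes. Among cells thinned to 1000 UMIs, with shallower ones left out, at least 1 member was seen in 96.8% of neutrophils, 91.2% of macrophages, 90.7% of dendritic cells, 77.2% of CD8 T cells and 51.2% of B cells (291 of 382 cells). Of the UMIs of the family, Mcl1 took 61.7 to 77.4% in neutrophils (median 71.0%) and 8.23 to 19.5% in dendritic cells. The Bcl2a1 copies together took 79.3 to 90.4% in dendritic cells (median 85.2%), 59.3 to 76.6% in macrophages and 19.5 to 33.9% in neutrophils. Within the dendritic gate the copies took 84.6 to 91.1% in mature cells (10 libraries) and 66.8 to 79.1% in the others (5 libraries). The latter range overlapped that of macrophages. Mcl1 took 7.85 to 13.9% in mature cells and 18.4 to 33.2% in the other dendritic cells. Bcl2 took 12.3 to 44.7% in CD8 T cells (median 27.2%) and 19.0 to 40.9% in NK cells, but 1.53 to 17.9% in CD4 T cells and at most 1.08% in any library of the 4 myeloid classes.

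**Figure D5:**
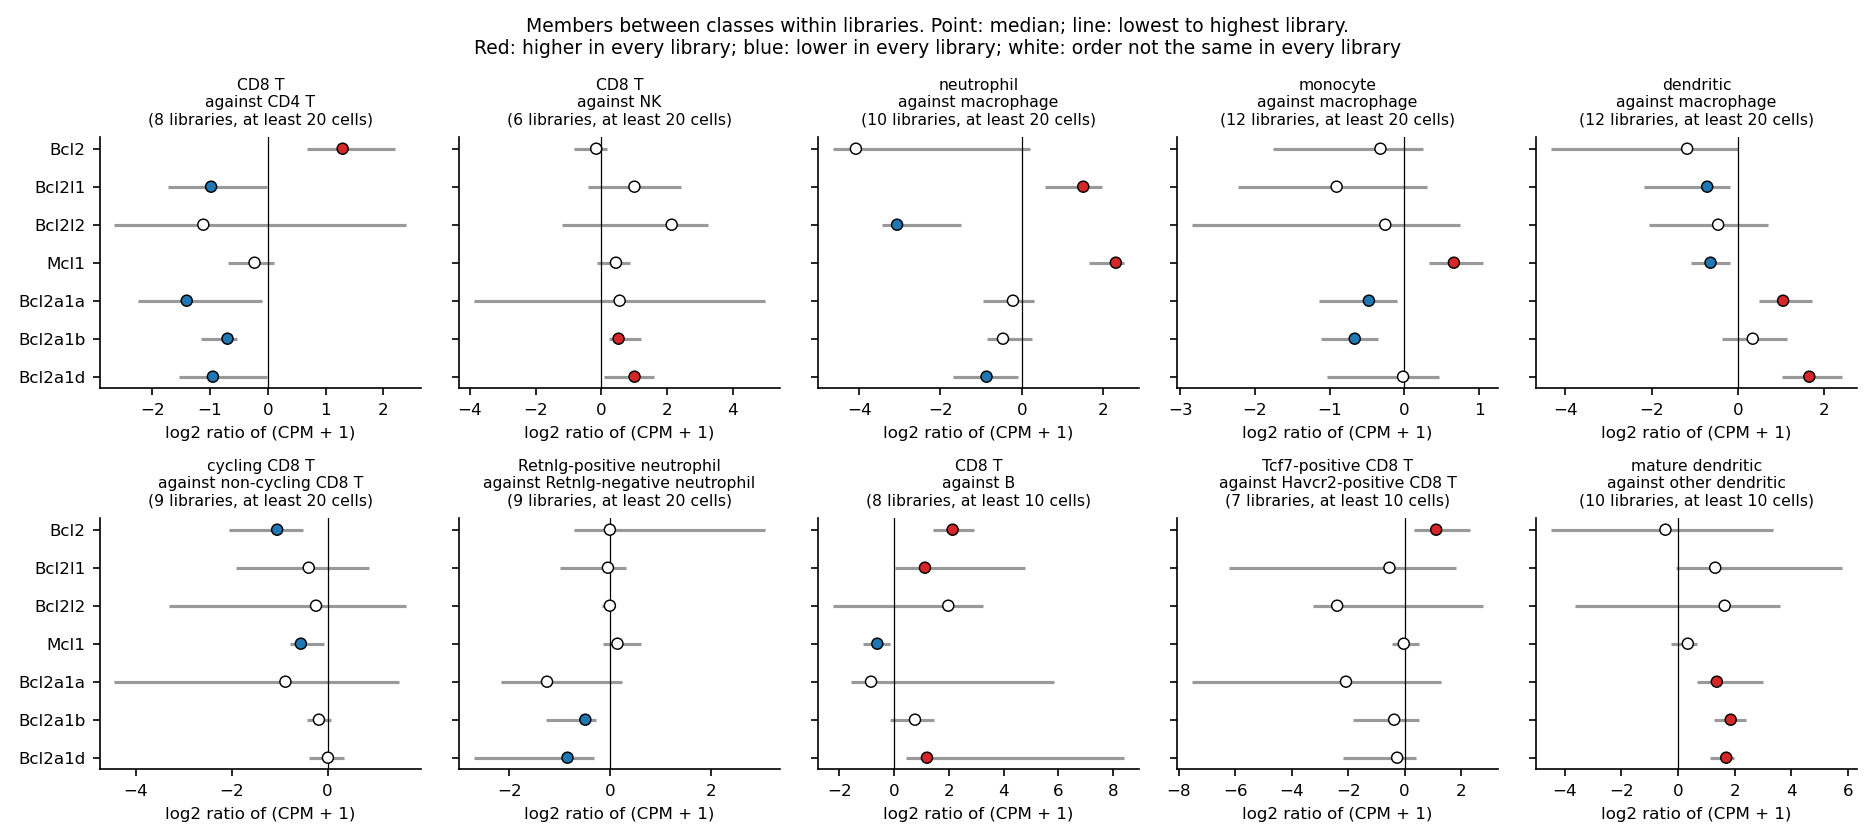
Log2 ratio of CPM + 1 for each member in 10 comparisons of classes within libraries. Points are medians over libraries, lines run from the lowest to the highest library, and red and blue points were higher or lower in every library.

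Set against CD4 T cells, CD8 T cells had more Bcl2 in 8 of 8 libraries (log2 ratio 1.296, range 0.68 to 2.19). They had less Bcl2a1a (-1.40), Bcl2a1d (-0.95), Bcl2a1b (-0.70) and Bcl2l1 (-0.98), each lower in 8 of 8, although the ratio nearest to 0 was -0.01 for Bcl2a1d and Bcl2l1. With cells thinned to 1000 UMIs the Bcl2a1a ratio was -0.52, still lower in 8 of 8, and Bcl2l1 was no longer called, nor was it without shared barcodes. With a mitochondrial limit of 5%, or without the highest 10% of UMIs, neither Bcl2a1a nor Bcl2l1 was called, and in the latter case the Bcl2a1a median in CD4 T cells was 42.2 CPM. Thus 5 of 7 members were called, where 8.26% of all genes were. With at least 10 cells per class, which takes in 11 libraries, Bcl2 was the 1 member still called. In CD4 T cells the median Cd74 level, a gene of antigen-presenting cells, was 4038 CPM against 1362 CPM in CD8 T cells, and Apoe 779 against 466 CPM, and the part of Cd74-rich cells was not tested. Cells without an Apoe UMI, at least 10 of both classes, were present in 4 libraries. There Bcl2 was higher in CD8 T cells in 3 of 4 (555 against 236 CPM), Bcl2a1a and Bcl2a1d were lower in 4 of 4 and Bcl2a1b in 3 of 4. Bcl2l1 was at 36.9 CPM in CD8 T against 10.96 CPM in CD4 T cells, higher in 2 of 4. Of 38 partner genes 2 were higher and 10 lower. The largest differences were in Il2ra (CD25, 39.4 against 288 CPM), Cd40 (5.89 against 25.2 CPM), Csf2rb (31.1 against 91.5 CPM) and Pmaip1 (NOXA, 37.2 against 115 CPM). All 4 were lower in CD8 T cells, as were 3 of 6 NF-kB genes. The BH3-only gene Bcl2l11, given here and below although chosen after its values were seen, was higher (149 against 112 CPM).

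Against NK cells, CD8 T cells had more Bcl2a1b (523 against 282 CPM) and Bcl2a1d (323 against 158 CPM) in 6 of 6 libraries, and 12.8% of all genes were called. Neither was called with at least 10 cells and 10 libraries. Bcl2a1b was not called with 1 UMI of another lineage allowed, nor Bcl2a1d without shared barcodes. Of the partners 7 were higher and 2 lower, Il7r (219 against 24.0 CPM), Il15ra (20.1 against 2.22 CPM) and Birc5 (145 against 45.1 CPM) among the higher ones, and Bcl2l11 was lower in CD8 T cells (163 against 414 CPM). Against B cells, at the limit of 10 cells and in 8 libraries, CD8 T cells had more Bcl2 (379 against 75.4 CPM), Bcl2l1 and Bcl2a1d and less Mcl1 (294 against 549 CPM), 4 of 7 members where 10.6% of genes were called. Of the partners 9 were higher and 4 lower, and Tnfrsf13c, the BAFF receptor, was the one furthest on the B cell side (1.94 against 59.9 CPM).

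Against macrophages, neutrophils had higher CPM of Mcl1 (log2 ratio 2.31, range 1.66 to 2.52) and Bcl2l1 (1.51, range 0.56 to 1.97) in 10 of 10 libraries. Bcl2a1d was at lower CPM (-0.87), also in 10 of 10. Bcl2a1d was not called with the mean of single cells, with 1 UMI of another lineage or up to 10 C1q UMIs allowed, or with at least 10 cells. With Bcl2l2, 4 of 7 members were called, where 43.5% of all genes were, 37.1% being lower in neutrophils, so 4 is near the share of all genes. The 2 members higher in neutrophils stand beside 6.38% of genes in that direction. Of the partners 8 were higher and 6 lower. Nfkbia (3955 against 390.3 CPM), Birc3 (cIAP2, 319.6 against 44.6 CPM), Tnfaip3 (A20, 875 against 165 CPM) and Bcl2l11 (425 against 119 CPM) were higher, and Birc5 (survivin, a gene of dividing cells, 4.20 against 74.9 CPM) was lower.

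Against macrophages, monocytes had higher CPM of Mcl1 (log2 ratio 0.66, range 0.33 to 1.06) and lower CPM of Bcl2a1b (-0.66) and Bcl2a1a (-0.47) in 12 of 12 libraries. These were 3 of 7 members, where 18.5% of genes were called. Bcl2a1d was on either side, in 6 libraries each. Bcl2l1 was lower in 11 of 12. Of the partners 7 were higher and 2 lower. Birc5 was lower in monocytes (5.74 against 74.6 CPM), and Apaf1 (46.0 against 27.0 CPM) and Csf2rb (343 against 192 CPM) were higher.

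Against macrophages, dendritic cells had more Bcl2a1d (log2 ratio 1.66, range 1.02 to 2.42) and Bcl2a1a (1.05, range 0.49 to 1.72) and less Mcl1 (-0.63) and Bcl2l1 (-0.71) in 12 of 12 libraries. These 4 of 7 members stand beside 23.9% of all genes. Mcl1 and Bcl2l1 were no longer lower in every library when cells were thinned to 1000 UMIs. Of the 38 partners 13 were higher and 0 lower, where 980 genes were higher and 2683 lower of 15351 tested. The largest differences were in Il15ra (66.5 against 5.54 CPM), Il2ra (41.5 against 3.64 CPM), Birc2 (cIAP1, 202 against 24.9 CPM) and the NF-kB gene Relb (213 against 29.0 CPM). In mature against other dendritic cells 15 of 33 partners tested were higher and 2 lower, where 8.1% of all genes were higher and 6.68% lower, and all 6 NF-kB genes were higher. Il7r was at 297 against 3.49 CPM and Il15ra at 129.7 against 4.10 CPM there.

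Retnlg is used as a marker of mature neutrophils, but Retnlg-negative cells were shallower, so some may lack it through low depth. Retnlg-positive cells had a median of 1599.5 UMIs and Retnlg-negative ones 1024.5 UMIs, and 29.3 and 48% held under 1000 UMIs. The neutrophil gene Cxcr2 was at 629 and 694 CPM. The part of depth was not tested. Retnlg-positive cells had lower CPM of Bcl2a1b (767 against 1196 CPM, log2 ratio -0.49) and Bcl2a1d (124 against 269 CPM, log2 ratio -0.84) than Retnlg-negative ones in 9 of 9 libraries. These are shares of UMIs. Unthinned, 48.1% of Retnlg-positive and 45.1% of Retnlg-negative cells had a Bcl2a1b UMI, and 16.8 and 18.7% a Bcl2a1d UMI. Thinned to 1000 UMIs, these were 40.2 and 45.7% for Bcl2a1b and 10.1 and 14.7% for Bcl2a1d. Bcl2a1a was lower in 8 of 9. With 1 UMI of another lineage allowed, or without the highest 10% of UMIs, Bcl2a1a and Bcl2a1b were the members called and Bcl2a1d was not. With up to 10 C1q UMIs allowed, Bcl2a1d was called and Bcl2a1b was not. Bcl2a1b and Bcl2a1d were 2 of the 5 members with at least 20 UMIs, where 1.27% of all genes were called, and 0 of the 29 partners tested were called. Mcl1 was 3787 against 3502 CPM and higher in 6 of 9, and Bcl2l1 was higher in 4 of 9. Library 4 gave 192 of the 754 Retnlg-positive and 430 of the 850 Retnlg-negative cells.

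The genes most like each member over 76 values of 8 classes and 12 libraries were ranked by Pearson's r of log2(CPM + 1), among 9393 genes. The values share libraries and classes, so r is a description. Bcl2 was followed by Rasal3 (0.88), Gimap4 (0.88) and Gimap5 (0.87), GTPases of lymphocytes in the last pair. Mcl1 was followed by the nuclear RNA Neat1 (0.95), Msrb1 (0.93) and Ndel1 (0.93), and Bcl2l1 by Nfkbiz (0.76), Hnmt (0.75) and Amer2 (0.74). Bcl2a1a was followed by Zfp516 (0.84), Ifngr2 (0.83) and Marcks (0.82), Bcl2a1b by Bcl2a1a (0.77), Specc1 (0.75) and Bcl2a1d (0.73), and Bcl2a1d by Tmsb4x (0.81) and Il12b (0.77). Bcl2l2, with many values at 0, was followed by Ptdss2 (0.76), Cmtm3 (0.75) and Dynlrb1 (0.69).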

How the data were processed

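The authors deposited 1 matrix of UMI counts for CD45+ cells of 12 libraries, without normalization. Per the labels, reads were processed with Cell Ranger 2.1.1 and the mm10 build, and per the file headers with software version 3.0.2; how reads that fit several genes were treated is not given in the sources used here. Members and gene lists were chosen with earlier results of these data known. Cells were gated on raw UMIs of lineage genes, counts were summed per class and library, and CPM was taken of these sums. A gene was called when its CPM was on the same side in every library with at least 20 cells of both classes, with at least 6 such libraries and at least 20 UMIs. Gate genes were left out of the share of all genes called. Log2 ratios used a pseudocount of 1 CPM. Named genes were all 7 members, the 3 genes most like each, and up to 4 of 38 partner genes per comparison with the largest median difference among those called; genes named outside this rule are said to be so. Intervals and limits cover counting error only. Doublets were not called; the gates left out barcodes with UMIs of a fixed set of genes of other lineages, but not all barcodes with RNA of 2 lineages. The split of libraries by Y-linked UMIs, the limit of 10 cells, up to 10 C1q UMIs and the removal of cells with Apoe were chosen after seeing the data. Alternatives were other gates, filters, thinning, cell minimums and leaving out each library. Sums and ratios were computed with pandas 2.3.3 and numpy 2.4.6, intervals with scipy 1.17.1, and alignments with Biopython 1.88 (Python 3.11.15). GENCODE M21 and RefSeq gave coordinates and sequences. Values of 2 genes that this rule names are not reported here.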

Additional observations from a re-analysis of the deposited data

How the results depend on the processing

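Leaving out each library in turn left 5 to 6 members called for CD8 T against CD4 T cells, 4 to 5 for neutrophils and 4 to 5 for dendritic cells against macrophages, 3 to 4 for monocytes against macrophages, and 2 to 3 for cycling against non-cycling CD8 T cells and for Retnlg-positive against Retnlg-negative neutrophils. For CD8 T against NK cells this left 5 libraries and no value. For CD8 T against CD4 T cells the 5 members became 3 with a mitochondrial limit of 5%, 3 without the highest 10% of UMIs and 1 with at least 10 cells. For CD8 T against NK cells the 2 became 1 with 1 UMI of another lineage allowed, 1 without shared barcodes and 0 with at least 10 cells. For neutrophils the 4 became 2 with 1 UMI of another lineage allowed, 2 with up to 10 C1q UMIs and 1 with at least 10 cells. For dendritic cells the 4 became 2 when thinned to 1000 UMIs, Bcl2a1a and Bcl2a1d, and for the neutrophil subsets the 2 became 1 with up to 10 C1q UMIs. The causes were not tested. No median log2 ratio of a called member reversed under the alternatives with at least 6 libraries. This covers only the comparisons with a value at 20 cells. The comparisons made at 10 cells were not put through the alternatives. These were CD8 T against B cells, Tcf7-positive against Havcr2-positive CD8 T cells, and mature against other dendritic cells. The limits of 10 cells and 10 C1q UMIs and the removal of cells with Apoe were chosen after seeing the data. Some alternatives left fewer than 6 libraries and gave no value: own markers 1 UMI stricter (CD8 T against CD4 T or NK cells, neutrophil subsets), no Apoe (the same T and NK comparisons, cycling cells), 5% mitochondrial UMIs and no highest 10% (CD8 T against NK cells), at least 50 cells (NK, cycling cells, neutrophil subsets) and thinning (neutrophil subsets). The Foxp3 and patrolling monocyte comparisons had no value at any limit. Low depth limits Bcl2l2 in the small classes and Bcl2 in neutrophils. Treatment groups were not compared, paired or unpaired, because no label links a numbered library to a mouse or a group. The classes were paired within libraries.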
